A study of Mus musculus with 57 samples.

Results

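Renal vesicle cells with Wnt4 transcripts were compared with renal vesicle cells that had few or none. Cells were chosen by the measured levels of these genes in the deposited table of all expressed genes: Pax8 had to reach an RPKM (a read count divided by gene length and by the mapped reads of the cell) of 5 or more, and the cells were then split by Wnt4. Cells with Wnt4 at RPKM 5 or more formed the Wnt4 side (17 cells) and cells with Wnt4 below RPKM 1 formed the Wnt4-low side (31 cells), which together made 48 of the 57 cells of the series. The other cells were 2 with Wnt4 between both limits and 7 with Pax8 below 5. Each cell is a sample of its own in the series. All cells carried the Tg(Crym-EGFP)82Gsat transgene, in which Crym regulatory sequence drives a green fluorescent protein, and came from 1 pool of 2 kidneys of mice at postnatal day 4, of mixed strain background. Dissociated kidney cells were sorted by fluorescence, so both sides hold only what that sort let through. Neither side received a treatment, and the sides were chosen by the RPKM limits alone.

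Wnt4 is a secreted signalling protein that nephron progenitors switch on when they gather into aggregates beside the ureteric bud tip. It is required for these aggregates to become the renal vesicle, the earliest epithelial stage of the nephron. Pax8 is a paired box transcription factor that is switched on in the same committed cells and stays on in the forming tubule. The vesicle soon acquires a proximal part, with Wt1, which gives rise to podocytes, and a distal part with Lhx1, Sox9 and Pou3f3, which gives rise to tubule.

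Among the gene groups compared, the widest difference between both sides lay in the cell cycle. Of 50 genes of the G2 phase and mitosis, 19 (38.0%) were higher on the Wnt4 side past the fold used here, and none was lower past it. The shares over all filtered genes were 8.13% higher and 3.35% lower. The median difference of the G2 and mitosis genes was smaller among cells with a like number of detected genes, as given below. Genes of the early vesicle, of epithelium and of the distal vesicle differed little as groups. The sign of the early vesicle median depended on which cells were compared, as given below. Most of the proximal and podocyte genes had lower means on the Wnt4 side, with Tmem100 and Cited2 higher. Of 15 immediate early and stress genes, Egr1, Ier2 and Btg2 were lower past the fold (20.0%) and Myc was higher (6.67%). The median difference of that group changed sign among cells with a like number of detected genes. The cells come from 1 pool and are not replicates of a condition, so every difference below is a description of these cells with no test.

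The spread of Wnt4 itself is what chose the cells and is given only as a description. On the Wnt4 side Wnt4 (mm9, chromosome 4, 136833550 to 136852694) ranged from RPKM 6.00 to 243.7 with a median of 62.5. The cells just inside the limit were cell 41 at 6.00 and cell 57 at 6.54, and the highest levels were those of cells 17, 23 and 7, at 243.7, 205.1 and 152.0. On the Wnt4-low side Wnt4 was listed at 0 in 24 of 31 cells and reached 0.828 in cell 21. The cells between both limits were cell 30 at 1.91 and cell 49 at 2.68. Pax8 ranged from 10.7 to 1160 with a median of 276 on the Wnt4 side, and from 15.8 to 1127 with a median of 323 on the Wnt4-low side, so its levels overlapped almost throughout. Outside the Pax8 limit the highest value was 1.99, in cell 58, and all 7 such cells had Wnt4 at 0.

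**Figure D1:**
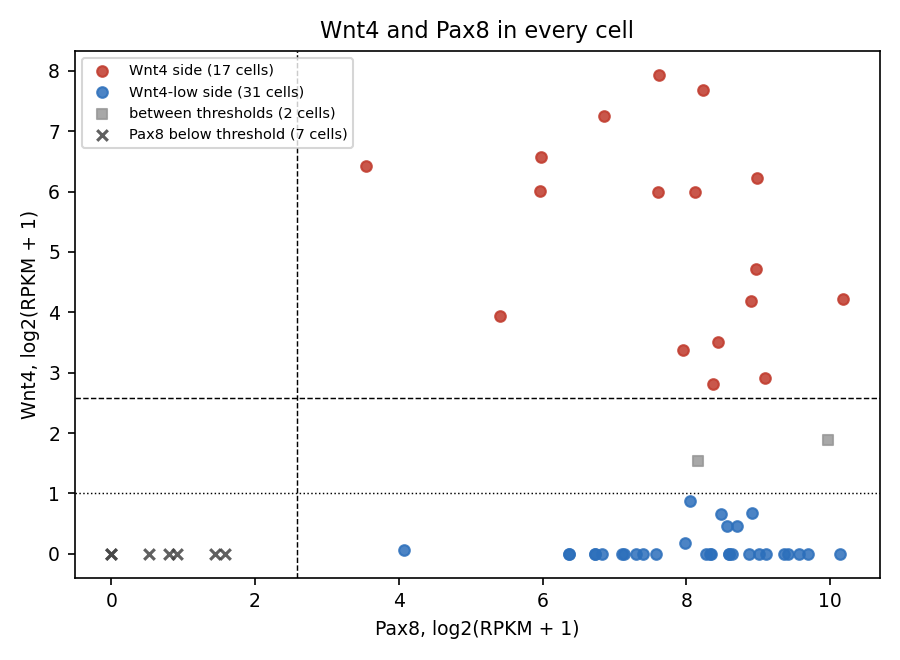
Wnt4 against Pax8 as log2(RPKM + 1) in all 57 cells, 1 point per cell, with dashed lines at RPKM 5 for each gene and a dotted line at RPKM 1 for Wnt4. The 17 cells of the Wnt4 side lie in the upper right, the 31 cells of the Wnt4-low side lie along the bottom over the same Pax8 range, and 2 cells lie between.

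Detection in a cell means an RPKM of 1 or more. The number of genes detected per cell was 3049 to 6495 with a median of 4546 on the Wnt4 side and 2803 to 5704 with a median of 4347 on the Wnt4-low side. Relative sequencing depth, read from the commonest ratio of low values between cells, had a median of 1.00 (0.756 to 1.24) and 0.988 (0.340 to 1.52). Reads per cell are not stated in the sources used here. The common transcripts Tbp and Hprt were detected in 13 and 15 of the 17 Wnt4-side cells and in 18 and 25 of the 31 Wnt4-low cells, so a gene listed at 0 in a cell cannot be told apart from a transcript missed there. Crym, whose regulatory sequence drives the sorted reporter, was detected in 3 of 17 and 4 of 31 cells. Markers of endothelium and blood were sparse: the endothelial list passed the filter with 1 of 3 measured genes and the erythroid list with none of 1. Of 5 filtered mesangial and smooth muscle genes none was past the fold defined below, and of 5 ureteric bud genes only Krt18 was. Genes listed for renal stroma, some of which vesicle cells also use, were found in most cells, with at least 2 detected in 16 of 17 and 28 of 31, and at least 2 ureteric bud genes were detected in 10 of 17 and 17 of 31. The summed level of 17 measured macrophage and immune genes was 0 to 60.1 (median 2.96) on the Wnt4 side and 0 to 210.8 (median 4.62) on the Wnt4-low side, with at least 2 members detected in 4 and 14 cells, and its part in the differences below was not tested.

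For each gene the difference is the mean of log2(RPKM + 1) over the Wnt4 side minus that over the Wnt4-low side, and a gene is past the fold at 1 or more in either direction. Among 9854 genes detected in at least 5 of the 48 cells, 801 (8.13%) were past the fold and higher on the Wnt4 side, 330 (3.35%) were past it and lower, and 56.1% had a difference above 0. The median difference was 0.087. When differences were centred on that median, the split was 664 higher and 450 lower. The counts of each gene group below are read against those shares.

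Genes that act from late S phase through mitosis were higher on the Wnt4 side, more so than genes at large. Of 50 such genes measured, 45 had a difference above 0 and the median difference was 0.86, beside 0.087 for all genes. Past the fold were 19 of 50 (38.0%), all higher. Their summed RPKM had a median of 3537 on the Wnt4 side and 1358 on the Wnt4-low side.

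Kif22, a chromosome-arm kinesin, had the widest difference of the group. Its RPKM on the Wnt4 side ran from 0 to 428 with a median of 92.4, and on the Wnt4-low side from 0 to 284 with a median of 0.617. The difference was 2.71, with an SD over cells of 3.24 and 3.20, and Kif22 was detected in 13 of 17 against 13 of 31 cells. Both sides thus held cells at 0 and cells with high levels, and what differed was how many cells were high. Tacc3, which stabilises spindle microtubules, ranged from 0.161 to 446.5 (median 110) on the Wnt4 side and from 0 to 498 (median 0.929) on the Wnt4-low side, a difference of 2.13. Mad2l1, part of the spindle checkpoint, had medians of 197 and 55.1 and a difference of 2.05.

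Ccnb1 encodes cyclin B1, which drives entry into mitosis (mm9, chromosome 13, 101548694 to 101556441). Its RPKM was 0 to 1176 with a median of 119 on the Wnt4 side and 0 to 2090 with a median of 1.62 on the Wnt4-low side, and the mean log2 level was 5.71 ± 3.88 (SD, n = 17 cells) against 3.77 ± 3.82 (SD, n = 31 cells). The highest single level thus lay on the Wnt4-low side, and the full ranges overlapped. Cdc20, the activator of the complex that ends metaphase, was detected in 11 of 17 cells (64.7%, exact Clopper-Pearson 95% interval 38.3 to 85.8) and in 7 of 31 (22.6%, 9.6 to 41.1). Its median was 10.3 against 0 and its difference 1.97. Kif20a, a kinesin of cell division, differed by 2.04 and Plk1, a mitotic kinase, by 1.79. Pttg1, the securin that delays the separation of sister chromatids, differed by 1.69.

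The group was not uniform. Top2a, the topoisomerase that untangles chromosomes, was detected in 17 of 17 and 29 of 31 cells with medians of 142 and 40.4 and a difference of 1.23. Cdk1, the partner of cyclin B1, was at a median of 111 against 7.24 and differed by 1.27. Ccnb2, the related cyclin B2, had medians of 12.5 and 13.7 and a difference of 0.21. Aurkb, a kinase of the centromere, differed by 0.23, and Mki67, the common proliferation marker, by -0.13, with medians of 6.40 and 8.54. The lowest difference of the group was that of Nuf2, a kinetochore protein, at -0.86.

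Counted cell by cell, the G2/M genes detected numbered 6 to 49 of 50 with a median of 39 on the Wnt4 side and 3 to 47 with a median of 25 on the Wnt4-low side. At least 30 were detected in 12 of 17 cells (70.6%, 44.0 to 89.7) and in 13 of 31 (41.9%, 24.5 to 60.9), and these intervals overlap. At least 10 were detected in 15 of 17 and 28 of 31 cells, so nearly every cell of either side held some of these transcripts. The intervals cover only the sampling of cells from this pool.

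**Figure D2:**
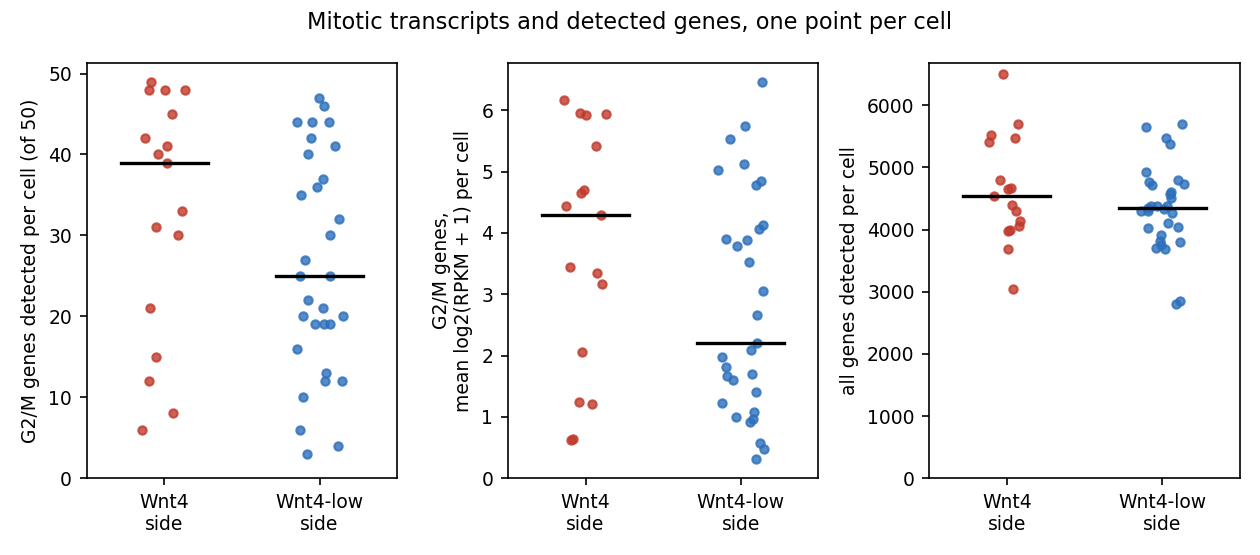
Number of G2/M genes detected per cell (left), their mean log2(RPKM + 1) per cell (middle) and all genes detected per cell (right), 1 point per cell, black line at the median. The Wnt4 side has a median of 39 G2/M genes against 25, and a median of 4546 detected genes against 4347, with overlapping ranges in each panel.

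Other measures moved with the mitotic genes. Across the 48 cells the mean level of the G2/M genes had a Spearman rho of 0.70 with the number of genes detected and of 0.35 with relative depth; the cells share 1 library run, and the G2/M genes are themselves among the genes detected. When only cells with 4051 to 4726.5 detected genes were kept, which left 7 and 13 cells, the median difference of the list was 0.20, with 14 of 49 filtered members higher and 6 lower past the fold. With so few cells the shares of all genes past the fold were 16.8% higher and 15.6% lower. When only the 6 and 18 cells with Ccnb1 below RPKM 5 were kept, the list's median was 0.05, with 5 of 41 members higher and 6 lower, beside 15.1% and 19.6% of all genes. That limit selects cells on a member of the list itself, which lowers the list's levels on both sides by construction.

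Promoters of the mitotic genes are shown because many genes of this phase are known to share the CHR element and the CCAAT box, through which they are switched on together. Sequences are from RefSeq on build GRCm38.p6, from 250 bases before to 30 after the start of transcription, 5′ to 3′ on the gene's strand. Capitals mark matches to TTTGAA (the core of the CHR element) or CCAAT, or to their reverse complements.
Kif22, chr7:127042391-127042670, minus strand: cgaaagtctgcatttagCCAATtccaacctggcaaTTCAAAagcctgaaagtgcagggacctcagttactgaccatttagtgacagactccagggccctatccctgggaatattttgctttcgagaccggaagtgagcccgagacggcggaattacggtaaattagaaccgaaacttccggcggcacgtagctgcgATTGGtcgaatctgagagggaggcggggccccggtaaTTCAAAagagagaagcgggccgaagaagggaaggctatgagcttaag
Cdc20, chr4:118437314-118437593, minus strand: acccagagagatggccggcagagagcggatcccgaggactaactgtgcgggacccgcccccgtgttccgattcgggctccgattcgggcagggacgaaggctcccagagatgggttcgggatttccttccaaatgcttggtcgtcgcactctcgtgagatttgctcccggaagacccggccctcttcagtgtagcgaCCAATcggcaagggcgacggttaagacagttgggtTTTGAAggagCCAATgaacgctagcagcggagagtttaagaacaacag
Ccnb1, chr13:100786457-100786736, minus strand: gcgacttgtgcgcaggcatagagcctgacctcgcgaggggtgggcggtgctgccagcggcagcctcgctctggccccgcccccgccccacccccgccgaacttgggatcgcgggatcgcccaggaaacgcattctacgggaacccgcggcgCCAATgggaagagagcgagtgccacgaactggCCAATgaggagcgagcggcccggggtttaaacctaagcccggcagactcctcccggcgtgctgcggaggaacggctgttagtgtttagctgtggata
Tacc3, chr5:33657878-33658157, plus strand: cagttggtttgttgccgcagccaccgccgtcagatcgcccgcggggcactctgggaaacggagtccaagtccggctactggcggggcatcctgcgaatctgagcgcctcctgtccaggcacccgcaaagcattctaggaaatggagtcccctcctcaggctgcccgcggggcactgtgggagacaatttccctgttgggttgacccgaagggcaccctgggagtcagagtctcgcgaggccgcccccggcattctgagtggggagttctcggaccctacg
Kif22 held 2 matches of each motif, Cdc20 held 1 of TTTGAA and 2 of CCAAT, Ccnb1 held 2 of CCAAT alone, and Tacc3 held neither in this window, as did Mad2l1.

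A promoter was found by symbol for 42 of the 50 G2/M genes. TTTGAA was present on either strand in 26 of them (61.9%), CCAAT in 33 (78.6%) and both in 24 (57.1%). Among all 27025 gene symbols with a RefSeq promoter the shares were 19.5%, 39.7% and 7.37%, where a match in any promoter of a gene counted. The motifs did not separate the G2/M genes that were past the fold from those that were not: TTTGAA was found in 9 of 15 (60%) and 17 of 27 (63.0%), and CCAAT in 12 of 15 (80%) and 21 of 27 (77.8%). In the other 579 higher genes with a promoter TTTGAA was found in 14.9%, and in 243 lower genes in 12.3%, beside 13.7% of the 6985 filtered genes with a promoter. In the same order, CCAAT was found in 39.7%, 49.4% and 43.2% of these sets, and both motifs in 6.39%, 6.58% and 5.84%. A match is a description of these letters, not a site.

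Genes of DNA replication and its onset differed less than the mitotic genes. Of 45 measured, 28 had a difference above 0 and the median was 0.19, with 3 higher (6.67%) and 1 lower (2.22%) past the fold, which is near the shares for all genes. Among the higher ones were Rrm2 and Rrm1, the ribonucleotide reductase subunits, which differed by 1.50 and 1.19. Rrm2 had medians of 244 and 195 and was detected in 17 of 17 and 27 of 31 cells. Rad51ap1, a DNA repair protein, was the lower one at -1.62, detected in 7 of 17 and 17 of 31 cells. Among 12 cyclins of G1 and inhibitors of cyclin-dependent kinases, 2 were higher and 2 lower. Cdkn2d, the inhibitor p19, differed by 1.56 and Rbl1, a relative of the retinoblastoma protein, by 1.14. The lowest difference of these genes was that of Cdkn1c, the inhibitor p57, at -1.80. Cdkn1c is also counted with the proximal and podocyte genes below. Ccnd1, cyclin D1, had nearly equal medians of 450 and 442, and its difference was 0.12. Without the 4 Wnt4-low cells in which Podxl was detected, described below, the median of the replication list was -0.19 and none of its genes was higher past the fold, beside 7.38% of all genes.

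The genes that mark the early vesicle together with Wnt4 were not higher as a group on the Wnt4 side. Of 28 that passed the filter, 15 had a difference above 0, the median was 0.06, and 1 was higher and none lower past the fold. Lhx1, a transcription factor of the vesicle, was detected in 16 of 17 and 26 of 31 cells with medians of 41.6 and 65.5, and Jag1, the Notch ligand, was detected in every cell of both sides with medians of 212 and 207. The ranges of both genes overlapped in part, at 0 to 184 and 0 to 431 for Lhx1 and at 22.1 to 772 and 2.63 to 538 for Jag1. Their differences were -0.32 and 0.55. Without the 4 Wnt4-low cells in which Podxl was detected they were -1.02, past the fold, and 0.05. Pax2, which acts with Pax8, was detected in 9 of 17 and 9 of 31 cells and differed by 0.87. Fgf8 and Bmp2, growth factors of the vesicle, were detected in few cells, 2 and 5 of 17 against 4 and 6 of 31. Dll1, a Notch ligand of the distal vesicle, was detected in 6 and 11 cells.

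Other vesicle genes leaned either way without passing the fold. Ccnd2, cyclin D2, differed by 0.96, and Npy, a neuropeptide with medians of 120 and 231, by -0.996. Papss2, an enzyme that makes the sulphate donor, and Greb1 had differences of -0.58 and -0.33. The median of the early vesicle list was -0.61 among cells with Ccnb1 below RPKM 5, with 11 of 26 members lower past the fold beside 19.6% of all genes. It was 0.36 when the Wnt4 side was limited to its 10 cells at RPKM 20 or more, with 3 of 28 members higher, near the 10.8% of all genes. Without the 4 Wnt4-low cells in which Podxl was detected the list's median was -0.19, with 1 of 28 members higher and 7 lower past the fold. Of the 9647 genes filtered in that setting, 712 were higher and 393 lower. The sign of the list's median thus depended on which cells were compared.

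Genes of the uninduced progenitor were measured in 17 cases and 14 passed the filter, none past the fold, with a median of 0.15. Six2 and Cited1, which keep progenitors undifferentiated, were each detected in 2 of 17 Wnt4-side cells and in 3 and 2 of 31 Wnt4-low cells. Both were detected together in 0 of 17 cells (0%, 0 to 19.5) and in 1 of 31 (3.23%, 0.0816 to 16.7). Eya1, a cofactor of Six2, differed by 0.92 (8 of 17 and 10 of 31 cells), and Sall1, a zinc finger factor of progenitors and early nephron, by 0.75 (17 of 17 and 27 of 31).

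Genes around the Wnt pathway did not move together. Among 11 genes activated by canonical Wnt signals, 2 were higher past the fold, Myc at 1.63 and Znrf3, a membrane ligase that removes Wnt receptors, at 1.12. Lef1, a nuclear effector and target, was detected in 5 of 17 against 16 of 31 cells with a difference of -0.77, and Axin2, the common reporter target, in only 1 and 2 cells. Among 19 ligands, receptors and inhibitors other than Wnt4, 14 had a difference below 0 and 2 were lower past the fold. These were Ryk, a Wnt co-receptor, at -1.21 and Wls, the carrier that Wnt proteins need for secretion, at -1.15. Wls was detected in 8 of 17 and 18 of 31 cells, and its difference was 0.24 among the cells with a like number of detected genes. Sfrp2, a secreted Wnt modulator, had a difference of 0.06.

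In the Notch pathway 2 of 17 genes were higher past the fold and none was lower, with a median of 0.12. Hey2, a Notch target and 1 of the higher genes, differed by 1.21, was detected in 5 of 17 and 6 of 31 cells, and was at -0.04 when the Wnt4 side was limited to RPKM 20 or more. The targets Hes1 and Hey1 were detected in 15 of 17 and 27 of 31 cells each, with differences of 0.03 and -0.57. Hes5 was detected in 3 and 1 cells. In the FGF and BMP pathways 1 of 27 genes was past the fold, Spred1, an inhibitor of the ERK cascade, at 1.32, and the median was 0.13.

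**Figure D3:**
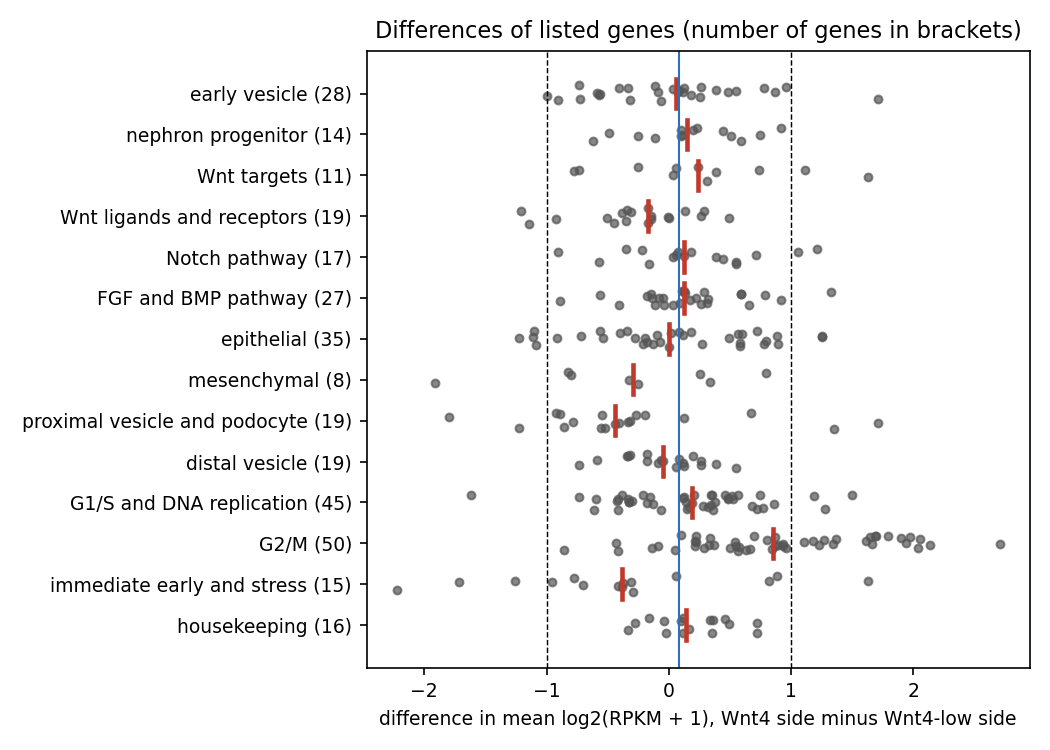
Difference in mean log2(RPKM + 1), Wnt4 side minus Wnt4-low side, for the genes of each list that passed the filter, 1 point per gene, with the list's median in red, the median of all genes (0.087) in blue and dashed lines at the fold. The G2/M list has its median at 0.86 and 19 points past the upper line; the proximal and podocyte list has its median at -0.44.

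Epithelial genes showed no common direction. Of 35 that passed the filter 18 were above 0 and 17 below, with a median of 0.0024, and 2 were higher and 4 lower past the fold (5.71% and 11.4%). The higher ones were Krt18, a keratin, detected in 5 of 17 and 4 of 31 cells, and Cd24a, a surface glycoprotein, both at 1.25. Cd24a had equal medians of 229 and 230, and its difference lay in low cells on the Wnt4-low side, where it reached 0 while its lowest level on the Wnt4 side was 27.6. The lower ones were Spint2, an inhibitor of membrane serine proteases, at -1.22, Col4a2, a basement membrane collagen, at -1.11, Prom1, a protein of membrane protrusions, at -1.10 and Tjp1, a tight junction scaffold, at -1.08. The cadherins of the tubule differed less: Cdh1 by -0.18 (5 of 17 and 9 of 31 cells), Cdh6 by 0.78 (8 and 8 cells), and the adhesion molecule Epcam by 0.56 (5 and 9 cells).

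Of 8 mesenchymal genes that passed the filter 1 was past the fold. Cdh2, the neural cadherin, which mesenchyme and early nephron epithelium both use, ranged from 0 to 22.2 with a median of 1.51 on the Wnt4 side and from 0 to 240 with a median of 10.1 on the Wnt4-low side. Its difference was -1.91, and the cells above 22.2 all lay on the Wnt4-low side. Sparc, a matrix glycoprotein, and Vim, vimentin, had differences of -0.82 and -0.80.

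Proximal vesicle and podocyte genes mostly had lower means on the Wnt4 side. Of 19 that passed the filter 15 had a difference below 0, and the median was -0.44. Past the fold were 2 lower and 2 higher genes, 10.5% each. The summed level of the list had a median of 506 on the Wnt4 side and 678 on the Wnt4-low side.

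Cdkn1c, the cyclin-dependent kinase inhibitor p57 (mm9, chromosome 7, 150644244 to 150646955), ranged from 0 to 202 with a median of 7.80 on the Wnt4 side and from 0 to 316 with a median of 52.8 on the Wnt4-low side. It was detected in 13 of 17 and 27 of 31 cells, so the sides differed more in level than in detection, and its difference was -1.80 (SD over cells 2.63 and 2.40). Among the cells with a like number of detected genes the difference was -0.19. Wt1, the master factor of the podocyte line, was detected in 14 of 17 and 26 of 31 cells with medians of 40.8 and 129 and a difference of -0.89.

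The highest podocyte levels lay in a few Wnt4-low cells. Podxl, the main sialoprotein of the podocyte surface, was detected in 0 of 17 Wnt4-side cells (0%, 0 to 19.5) and in 4 of 31 Wnt4-low cells, cells 2, 10, 29 and 34. Ptpro, a phosphatase of podocyte foot processes, was detected in 0 and 5 cells. In cells 2, 10 and 34 Wt1 was at 1382, 1020 and 865, and Ptpro at 138, 74.6 and 265. Nphs1, the slit diaphragm protein nephrin, was at 27.9 in cell 2, at 24.8 in cell 10 and at 0 in cell 34. Without the cells in which Podxl was detected, the median of the list was -0.26 and Wt1 was at -0.39, while Cdkn1c stayed past the fold at -1.54. That comparison was chosen after these values were seen.

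Tmem100, a membrane protein found in the proximal vesicle (mm9, chromosome 11, 89891662 to 89897819), went the other way from most of the list. It ranged from 0 to 813 with a median of 117 on the Wnt4 side and from 0 to 600 with a median of 8.24 on the Wnt4-low side, and was detected in 12 of 17 and 18 of 31 cells. The difference was 1.71, but 0.32 among the cells with a like number of detected genes, 0.64 when the Wnt4 side was limited to cells at RPKM 20 or more and 4.52 with Ccnb1 below RPKM 5. Cited2, a transcriptional cofactor, was detected in 13 and 19 cells with medians of 32.7 and 6.04 and a difference of 1.35, or 0.63 among the cells with a like number of detected genes. Aldh1a2, an enzyme that makes retinoic acid and was listed here with stroma, had medians of 104 and 22.5, highest levels of 1011 and 325, and a difference of 1.79. Tcf21, a factor of stroma and podocytes, was detected in 12 and 17 cells and differed by -0.19. Aldh1a2 was thus the only 1 of 5 filtered stromal genes past the fold.

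Distal vesicle genes had a median difference of -0.05 over 19 genes, with none past the fold in either direction. Sox9, a transcription factor of the distal vesicle, was detected in 8 of 17 and 9 of 31 cells with a difference of 0.20, and Pou3f3, a POU factor of the distal nephron, in 5 and 9 cells with a difference of -0.05. Dkk1, a secreted Wnt inhibitor, differed by -0.73. Markers of later segments were few: 4 proximal tubule genes and 8 genes of the loop of Henle and distal tubule passed the filter, none past the fold. Of 7 parietal epithelial genes only Prom1 was past it.

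Wnt4 was found in cells with proximal genes and in cells with distal genes. Wt1 was at RPKM 20 or more in 12 of 17 Wnt4-side cells (70.6%, 44.0 to 89.7) and in 21 of 31 Wnt4-low cells (67.7%, 48.6 to 83.3). Sox9 or Pou3f3 was at that level in 5 of 17 (29.4%, 10.3 to 56.0) and 9 of 31 (29.0%, 14.2 to 48.0), so both shares were close. Cells with both Wt1 and a distal gene at that level numbered 2 of 17 on the Wnt4 side (11.8%, 1.46 to 36.4) and 0 of 31 on the Wnt4-low side (0%, 0 to 11.2), with overlapping intervals. They were cell 41, with Wt1 at 31.4 and Sox9 at 204.7, and cell 36, with Wt1 at 40.8, Sox9 at 51.9 and Pou3f3 at 21.1. These cells also had many detected genes, 6495 and 5414, and Ccnb1 at 748 and 1176; whether each is 1 cell was not tested.

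The authors' deposited table gives a signed fold for 787 genes between a proximal and a distal class of 28 cells, and it allowed the same question to be asked with the authors' own genes. All 28 cells of that table belong to the cells compared here, 12 on the Wnt4 side and 16 on the Wnt4-low side. Of 436 genes that table lists as higher in the proximal class, 29 were higher and 28 lower on the Wnt4 side past the fold (6.65% and 6.42%), with a median difference of 0.05. Of 333 filtered genes it lists as higher in the distal class, 21 were higher and 13 lower (6.31% and 3.90%), with a median of 0.09. Both medians are near that of all genes. In the authors' deposited table Tmem100 has a fold of 172.9, Wt1 of 96.1, Gstm1 of 22.0 and Tmem37 of 18.2 toward the proximal class, and Aldh1a2 has -8.86, toward the distal class.

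**Figure D4:**
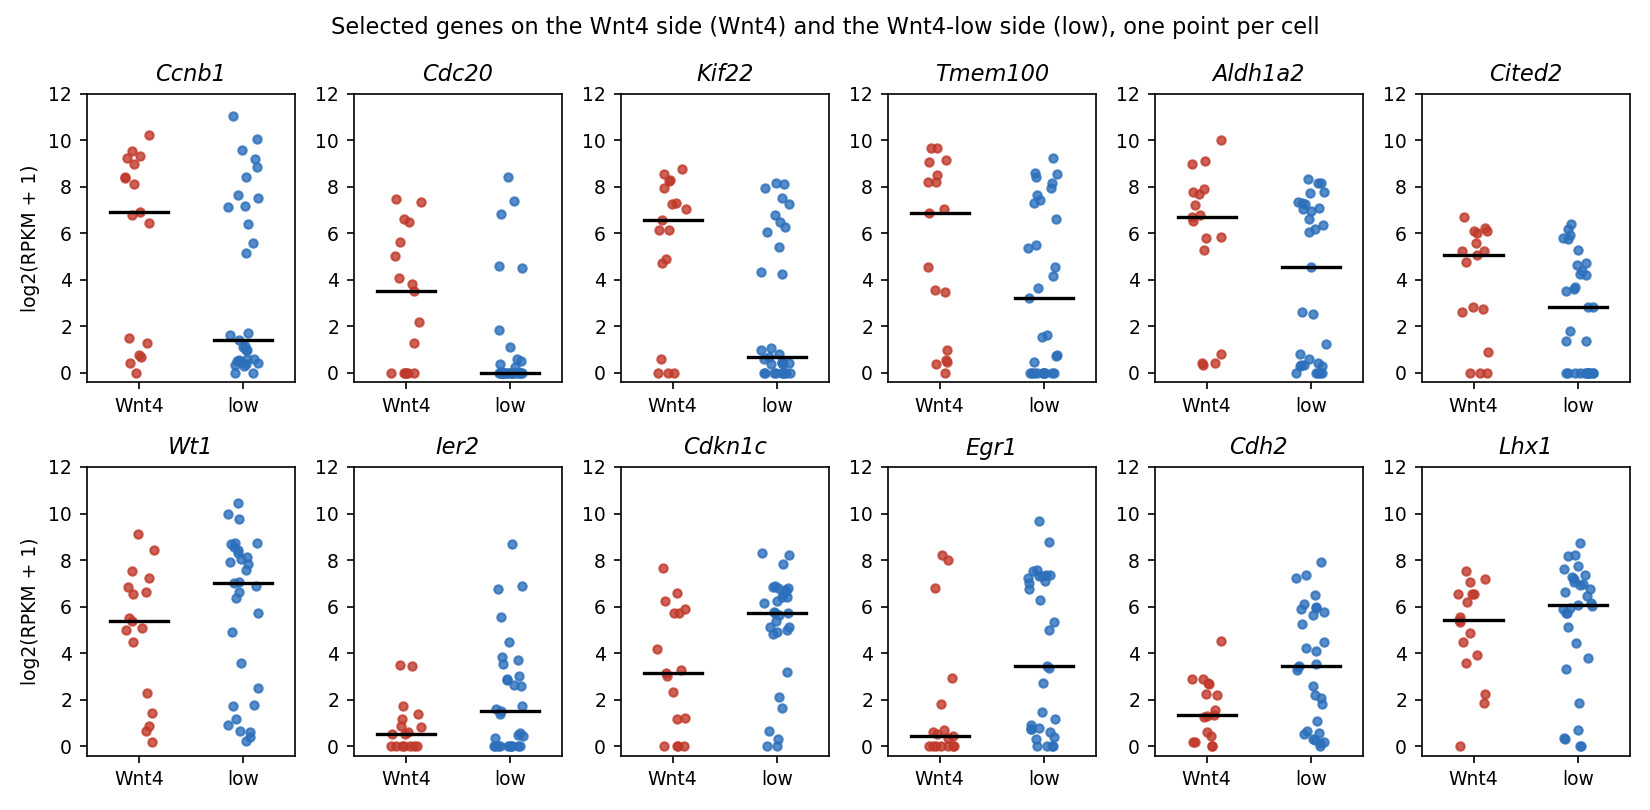
Level of 12 genes as log2(RPKM + 1) in every cell of the Wnt4 side (17 cells) and the Wnt4-low side (31 cells), 1 point per cell, black line at the median. Cdc20 has a median RPKM of 10.3 against 0 and Cdkn1c of 7.80 against 52.8, while the ranges of all 12 genes overlap between the sides.

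Immediate early genes are switched on by cells within minutes of a stimulus, dissociation included. Of 15 immediate early and stress genes that passed the filter, 11 had a difference below 0, with a median of -0.38, and 3 were lower (20.0%) and 1 higher past the fold. The summed RPKM of the list had a median of 562 on the Wnt4 side and 522 on the Wnt4-low side, the opposite order. Egr1, a zinc finger factor, ranged from 0 to 295 with a median of 0.356 on the Wnt4 side and from 0 to 820 with a median of 9.95 on the Wnt4-low side. Its difference was -2.23, and it was at RPKM 5 or more in 4 of 17 cells (23.5%, 6.81 to 49.9) and 18 of 31 (58.1%, 39.1 to 75.5). The sides overlapped in range, with fewer cells on the Wnt4 side above 5. Ier2 was detected in 5 of 17 and 17 of 31 cells, reached 10.2 against 407, and differed by -1.26. Btg2, an inhibitor of proliferation that is also induced early, differed by -1.72.

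The other members of that list were less apart. Fos was detected in 3 of 17 and 7 of 31 cells and differed by -0.77, and Jun was detected in 12 and 22 cells and differed by -0.38. Myc, also in the Wnt target list, was the higher one at 1.63, detected in 9 of 17 and 5 of 31 cells. The cells in which Podxl was detected also had Egr1 at 107 to 820, and without them Egr1 was at -1.67 and Btg2 at -0.70. Among cells with a like number of detected genes the median of the list was 0.29, Egr1 was at -1.95 and Btg2 at -0.27. The part of dissociation was not tested.

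The 12 genes with the largest difference toward the Wnt4 side, among genes detected in at least 10 cells, are described next. Bola1, a mitochondrial protein of iron-sulphur cluster handling, was detected in 15 of 17 and 13 of 31 cells with medians of 87.5 and 0 and a difference of 3.30 (SD over cells 2.59 and 2.57). Igfbp4, which binds insulin-like growth factors outside the cell, was detected in 16 and 15 cells with medians of 60.4 and 0.955 and a difference of 3.03. Both genes nevertheless had Wnt4-low cells at levels above those medians, up to 152 and 464. Xrcc5, the Ku80 subunit that binds broken DNA ends, differed by 2.63 (15 and 14 cells), Sae1, a subunit of the enzyme that activates SUMO, by 2.63 (16 and 20 cells), and Ctps, which makes CTP, by 2.50 (13 and 11 cells). Pmm2, an enzyme of glycosylation, differed by 2.89, Gemin6, of the complex that assembles spliceosomal particles, by 2.61, and Slc37a4, the glucose-6-phosphate transporter, by 2.52. The others were Kif22, Pldn, Tmem39a and Tmem199, the last 3 at 2.53, 2.50 and 2.48.

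The 12 genes with the largest difference toward the Wnt4-low side held 2, Tmem37 and Gstm1, that the authors' deposited table lists as higher in the proximal class. Among the 9854 filtered genes 436 are listed so. None of the 12 is listed for the distal class, and none of the 12 genes at the other end is listed for either class. Tmem37, a membrane protein, was detected in 6 of 17 and 20 of 31 cells with medians of 0.538 and 70.8 and a difference of -2.59. Pla2g7, a secreted phospholipase that degrades platelet-activating factor, was detected in 6 and 20 cells with medians of 0.368 and 46.1 and a difference of -2.53. Gstm1, a glutathione transferase with close relatives that can share its reads, was detected in 9 and 24 cells with medians of 1.30 and 190 and a difference of -2.30. In each of these 3 genes 6 or more Wnt4-side cells reached the detection level, so neither side was free of the transcript. Dgcr2 differed by -2.32, Poglut1, which adds glucose to Notch and other EGF repeat proteins, by -2.22, and Taf12, a subunit of the general factor TFIID, by -2.12. Egr1, Zfp868, Nsmce1, Npdc1, Pttg1ip and Dhrs1 made up the rest, and the last 5 had differences from -2.06 to -1.97.

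Across the 50 cells with Pax8 at RPKM 5 or more, the genes whose level most resembled that of Wnt4 were ranked by Spearman rho among 7729 genes detected in at least 10 of them. The 6 highest were Rhbdd3 (0.53), Atp5g1 (0.53), Rpl21 (0.48), Dnttip2 (0.46), Sfi1 (0.46) and Ctps (0.46). Atp5g1, a subunit of the mitochondrial ATP synthase, was detected in every cell of both sides, with medians of 308 and 209. Rpl21, a ribosomal protein with processed copies that can share its reads, had medians of 279 and 205. The cells share 1 pool, 1 run and a Wnt4 level of 0 in many cells, and these values describe the cells only.

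Within the Wnt4 side the mitotic genes were not highest where Wnt4 was highest. Over its 17 cells the Spearman rho of Wnt4 with the mean level of the G2/M genes was -0.57 and with the number of detected genes -0.54. Such negative values were not particular to the mitotic genes: rho was -0.61 with the FGF and BMP list, -0.51 with the housekeeping list and -0.50 with the G1 cyclins and inhibitors. Of early vesicle genes it was 0.01, of the proximal list -0.04 and of the distal list 0.04, and with relative depth it was -0.19. Cells 41, 55, 36 and 31, with Wnt4 at 6.00, 9.41, 10.4 and 25.4, had mean G2/M levels of 5.93, 5.95, 6.17 and 5.92 on the log2 scale. Cells 7 and 17, with Wnt4 at 152.0 and 243.7, had 0.64 and 1.20, while cell 23, with Wnt4 at 205.1, had 4.44. Within this side too, the number of detected genes went with the mitotic level (rho 0.90), and their separate parts were not tested.

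**Figure D5:**
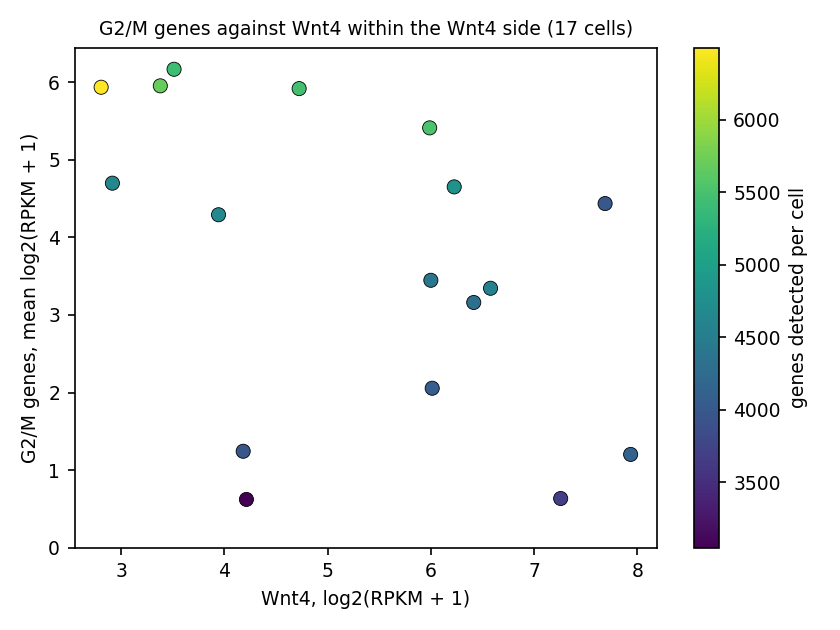
Mean log2(RPKM + 1) of the G2/M genes against Wnt4 as log2(RPKM + 1) in the 17 cells of the Wnt4 side, coloured by the number of genes detected per cell. The 4 cells with a mean above 5.9 have Wnt4 between RPKM 6.00 and 25.4, and the cell with the highest Wnt4, at 243.7, has a mean of 1.20.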

How the data were processed

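RNA of 57 single cells was amplified with the SMARTer chemistry on a Fluidigm C1 chip and made into unstranded Nextera XT libraries without molecular identifiers, per the labels' protocols, so reads of overlapping genes cannot be told apart. TopHat 1.4.1 and DESeq, with build mm9, appear in the submitters' processing notes with no role given. The authors deposited RPKM values of 12087 genes in 57 cells, not logged, with a count of the cells above RPKM 3 for each gene. A smaller deposited table holds RPKM of 787 genes in 28 cells and a signed fold, treated as a score, of the proximal against the distal class of the authors. Which cells formed each class is not stated in the sources used here.

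For 23 symbols on more than 1 row the row with the highest mean was kept. Levels were log2(RPKM + 1), which understates differences of low genes; Wnt4 and Pax8 were left out of all counts. The filter was RPKM 1 or more in at least 5 of the 48 cells, and 2208 genes failed it. Shares carry exact Clopper-Pearson 95% intervals. Depth was read from the commonest ratio of values below RPKM 1 between cells. Only the calculation of differences and the fold limit was tested on simulated data, made by resampling Wnt4-low values gene by gene with some genes raised. Such data lack the variation that genes of a cell share. Alternatives changed the pseudocount, the limits on Wnt4 and Pax8, the scaling, the filter, the statistic and the cells. Python 3.11.15 with pandas 2.3.3, numpy 2.4.6, scipy 1.17.1 and matplotlib 3.10.9 was used.

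The cells and the 24 gene lists were chosen with earlier results of these data known. Named genes were a fixed set, the 12 largest differences in each direction among genes detected in at least 10 cells, the 3 largest of each list and the 6 genes most like Wnt4. Cdc20, Ccnb2, Cdk1, Plk1, Kif20a, Pttg1, Aurkb, Nuf2, Rrm1, Rbl1, Ier2, Fos, Jun, Col4a2, Tjp1, Ptpro, Nphs1 and Hprt were named outside that rule, after their values were seen. Results of some listed genes are left out of the text.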

Additional observations from a re-analysis of the deposited data

How the results depend on the processing

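With a pseudocount of 0.1 in place of 1 the counts past the fold were 1774 higher and 953 lower in place of 801 and 330, and with 10 they were 94 and 26. Taking the median over cells gave 1211 and 519. Limiting the Wnt4 side to RPKM 20 or more gave 645 lower genes, keeping cells with a like number of detected genes gave 1081, and keeping cells with Ccnb1 below RPKM 5, chosen after seeing the data, gave 1421. The last settings compare fewer cells (10 and 31, 7 and 13, 6 and 18). Leaving out each cell in turn gave 755 to 946 higher and 294 to 424 lower genes. The G2/M median ran from 0.05 to 1.32 over all settings, always above 0, and from 0.61 to 1.03 when each cell was left out; the proximal and podocyte median stayed below 0, from -1.14 to -0.05. Of list medians, that of mesangial genes was -1.14 with Ccnb1 below RPKM 5, that of immune genes -1.24 without the Pax8 condition, that of endothelial genes (1 gene) 0.0097 with Wnt4 at RPKM 1 or more, and that of immediate early genes 0.29 among cells with a like number of detected genes. Of named genes, Wls was at 0.24 in those cells, Hey2 at -0.039 with Wnt4 at RPKM 20 or more, Cd24a at -0.0026 by the median over cells, and Rad51ap1 at 0.56 with Ccnb1 below RPKM 5. The cause of these changes was not tested. In the smaller table, over the same 12 and 16 cells, 767 of 787 genes had the same sign. Mesangial and endothelial lists gave no value among cells with a like number of detected genes, nor did the endothelial list with Ccnb1 below RPKM 5 or a filter of 10 cells. No paired analysis was possible because the cells form 1 labelled group. RPKM without read totals sets no counting error for single values.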
